A study of Gallus gallus with 5 samples.

Results

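The 8 circadian clock genes CLOCK, ARNTL, ARNTL2, PER2, PER3, CRY1, CRY2 and NFIL3 were followed in liver RNA of broiler breeders, the hens that lay the eggs from which meat chickens hatch. They were taken by symbol, and all 8 were present among the 6286 entries of the count table. RNA was sequenced from 5 livers, of which 2 came from hens fed without limit (FF1 and FF2) and 3 from hens on a restricted allowance (RF1, RF2 and RF3). Both feeding levels began when the hens were 38 weeks old, each library came from a different hen, and the labels give no age or hour at which the livers were collected. The question put by the series is whether feeding level is associated with an altered liver transcriptome.

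The clock is a loop of transcription that turns about once a day in most tissues. CLOCK and ARNTL (also called BMAL1) pair and switch on the period (PER) and cryptochrome (CRY) genes, whose proteins return to the nucleus and block that pair. In mouse liver a second loop runs through the nuclear receptors of the NR1D and ROR families, which lower and raise Arntl, Npas2 and Cry1, so that these genes peak at another time of day than Per3, Nr1d2 and Tef. NFIL3 represses the D-box genes that TEF and its relatives activate, and in mammals meal time is a strong timing cue for the liver clock.

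Library totals ranged from 2666609 (FF2) to 4622392 (FF1) estimated counts. FF2 stood apart, at 44.5 on a first principal component that held 50.7% of the variance, where the other hens lay between -28.0 and -1.75, so fold changes that it turns or moves strongly are given with and without it. The patterns nearest to PER2 and ARNTL were taken with FF2 included. Of the 12 hepatocyte markers 11 were in the table, and their summed level was 201947 and 202412 CPM (estimated counts scaled to library size) in FF hens and 166180 to 243326 CPM in RF hens, although ALB, a defining one, was listed at 0 in every hen. The summed red blood cell markers (4 of 9 in the table, none at 0 in all hens) were lowest in RF3, at 647 CPM, against 2107 and 2365 CPM in FF hens and 1657 and 2415 CPM in the other RF hens. Endothelial markers (3 of 6) were lower in both FF hens, at 161 and 202 CPM, against 271 to 318 CPM in RF hens. Stellate cell markers (5 of 8) were highest in FF1, at 1264 CPM, with 537 CPM in FF2 and 505 to 751 CPM in RF hens, and T cell markers (5 of 6) were highest in FF2, at 243 CPM, with 144 CPM in FF1 and 117 to 180.3 CPM in RF hens. Macrophage markers (3 of 8) were at 2806 and 1816 CPM in FF hens and 2486 to 4198 CPM in RF hens, highest in RF2, and bile duct markers (4 of 4, KRT7 at 0 in every hen) at 198 and 105 CPM in FF hens and 196 to 248 CPM in RF hens. The part of other cell types in the results below was not tested, and in whole liver fewer cells of a type and less RNA per cell cannot be told apart.

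None of the 8 clock genes passed in FF against RF hens. By edgeR's quasi-likelihood test with Benjamini-Hochberg adjustment over 4309 genes, 0 members passed at an adjusted p of 0.05, where 0.0464% of all genes did, and DESeq2 also called 0 members, where it called 1.83% of all genes. At an unadjusted p under 0.05 there was 1 member, ARNTL2, higher in FF, against 4.41% of all genes higher in FF, 4.94% lower and 9.35% in either direction. Without RF3 that count was 1 (PER3), against 385 of 4241 tested genes. It was 0 without RF1 or RF2, against 235 of 4246 and 236 of 4271 tested genes. No such count is given without FF1 or without FF2, where 1 FF hen is left, so its dependence on the FF hens is not shown. Of the 8 members, 6 had a log2 fold change above 0, against 2182 of 4309 tested genes. The median of the members was 0.39, against 0.0076 over all tested genes. Without FF2 that median was -0.099, with 3 of the 8 above 0. Without FF1 it was 0.69, with 7 of the 8 above 0. What stood out in the values was the spread between hens fed alike, which was wide for PER3 in both groups, for ARNTL in RF and for PER2 in FF.

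**Figure D1:**
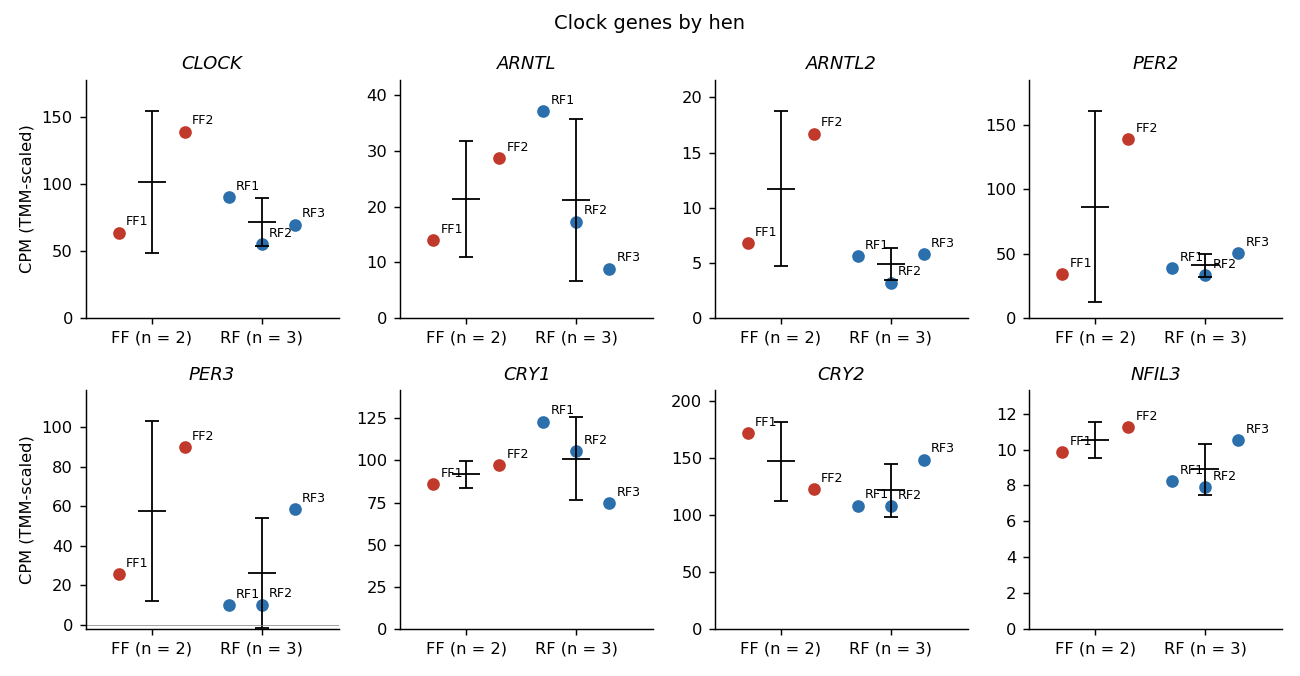
CPM of each clock gene in each hen, with FF hens in red and RF hens in blue; the black bar is the group mean with its SD (n = 2 and n = 3). ARNTL2 is the member whose FF hens both lie above the RF hens, and FF2 is the highest hen for 5 of the 8 genes.

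Of the activators, CLOCK, which binds DNA with ARNTL and has histone acetyltransferase activity in mammals, stood at 64.0 (FF1) and 139 (FF2) CPM in FF hens and at 90.6 (RF1), 55.2 (RF2) and 69.9 (RF3) CPM in RF hens. FF2 was the highest hen and FF1 lay inside the RF range. On the log2 scale FF over RF was 0.49 ± 0.39 (SE; adjusted p = 0.690 by edgeR's quasi-likelihood test), and it was -0.16 without FF2 and 0.95 without FF1.

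ARNTL, the partner of CLOCK, stood at 13.9 (FF1) and 28.7 (FF2) CPM in FF hens and at 37.2 (RF1), 17.3 (RF2) and 8.88 (RF3) CPM in RF hens. Both FF hens fell between the extremes of the RF group, and the means were nearly equal, 21.3 ± 10.4 CPM in the FF hens (SD, n = 2) against 21.1 ± 14.5 CPM in the RF hens (SD, n = 3). RF1 was 4.19-fold above RF3, and the 95% Poisson intervals of these hens, 31.6 to 43.5 CPM in RF1 and 6.28 to 12.2 CPM in RF3, did not touch; these intervals cover counting error only. That range over the RF hens, 2.01 on the log2 scale, was at the 97.2 percentile of all tested genes. Its log2 fold change was -0.0050 ± 0.60 (edgeR quasi-likelihood, adjusted p = 0.999) and took either sign, from -0.59 without FF2 to 0.70 without RF1.

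ARNTL2, a paralogue of ARNTL that can also pair with CLOCK, stood at 6.77 (FF1) and 16.7 (FF2) CPM in FF hens and at 5.65 (RF1), 3.23 (RF2) and 5.84 (RF3) CPM in RF hens. Both FF hens were above all 3 RF hens, a separation that 27% of all tested genes showed in either direction and 13.1% with FF above (13.9% with FF below). FF1 was close to the RF hens, with counting intervals of 4.66 to 9.51 CPM in FF1 and 3.78 to 8.62 CPM in RF3, on 33 and 25 estimated counts. FF over RF gave 1.22 ± 0.51 on the log2 scale (edgeR quasi-likelihood, unadjusted p = 0.0468, adjusted p = 0.524), 0.46 without FF2 and 1.74 without FF1. Reads shared between ARNTL and ARNTL2, between the PER genes or between the CRY genes could have been split in counting, and how they were handled is not given in the sources used here.

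Among the repressors, the period gene PER2 stood at 34.1 (FF1) and 139 (FF2) CPM in FF hens and at 38.6 (RF1), 33.5 (RF2) and 50.5 (RF3) CPM in RF hens. FF2 alone was high, and the other 4 hens lay close together. The range between the FF hens, 2.01 on the log2 scale, was at the 96.6 percentile of all tested genes, and that between the RF hens, 0.58, at the 52.6 percentile. On the log2 scale FF over RF was 1.07 ± 0.53 (edgeR quasi-likelihood, adjusted p = 0.574), 1.76 without FF1 and -0.25 without FF2.

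PER3, the other period gene measured, had the widest range of the 8. It stood at 25.6 (FF1) and 89.8 (FF2) CPM in FF hens and at 10.1 (RF1), 10.3 (RF2) and 58.7 (RF3) CPM in RF hens. FF2 and RF3 were high, RF1 and RF2 were low and nearly equal, and FF1 lay between them. The highest hen was 8.87-fold above the lowest, and the range over the RF hens, 2.48 on the log2 scale, was at the 98.6 percentile of all tested genes. The counting intervals were 51.6 to 66.4 CPM in RF3 and 7.32 to 13.6 CPM in RF1. The log2 fold change was 1.11 ± 0.84 (edgeR quasi-likelihood, adjusted p = 0.682), -0.041 without FF2, 1.75 without FF1, 2.49 without RF3, 0.73 without RF1 and 0.74 without RF2.

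The cryptochromes, which bind and inhibit the CLOCK and ARNTL pair, varied less. CRY1 stood at 86.2 (FF1) and 97.4 (FF2) CPM in FF hens and at 123 (RF1), 105 (RF2) and 74.5 (RF3) CPM in RF hens. CRY2 stood at 172 (FF1) and 123 (FF2) CPM in FF hens and at 108 (RF1), 108 (RF2) and 148 (RF3) CPM in RF hens. The groups overlapped in both genes, and among the RF hens RF1 was highest for CRY1 and RF3 for CRY2. The log2 fold changes were -0.14 ± 0.30 for CRY1 and 0.28 ± 0.29 for CRY2 (edgeR quasi-likelihood, adjusted p = 0.893 and 0.775). CRY1 turned to 0.032 without RF1, and CRY2 was 0.0074 without FF1 and 0.51 without FF2.

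NFIL3, the D-box repressor, was the steadiest member. It stood at 9.85 (FF1) and 11.3 (FF2) CPM in FF hens and at 8.24 (RF1), 7.93 (RF2) and 10.5 (RF3) CPM in RF hens, on 27 to 48 estimated counts per hen. RF3 lay between the FF hens, and the highest hen was 1.42-fold above the lowest. The log2 fold change was 0.24 ± 0.35 (edgeR quasi-likelihood, adjusted p = 0.835) and ranged from 0.16 to 0.38 as each hen was left out.

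**Figure D2:**
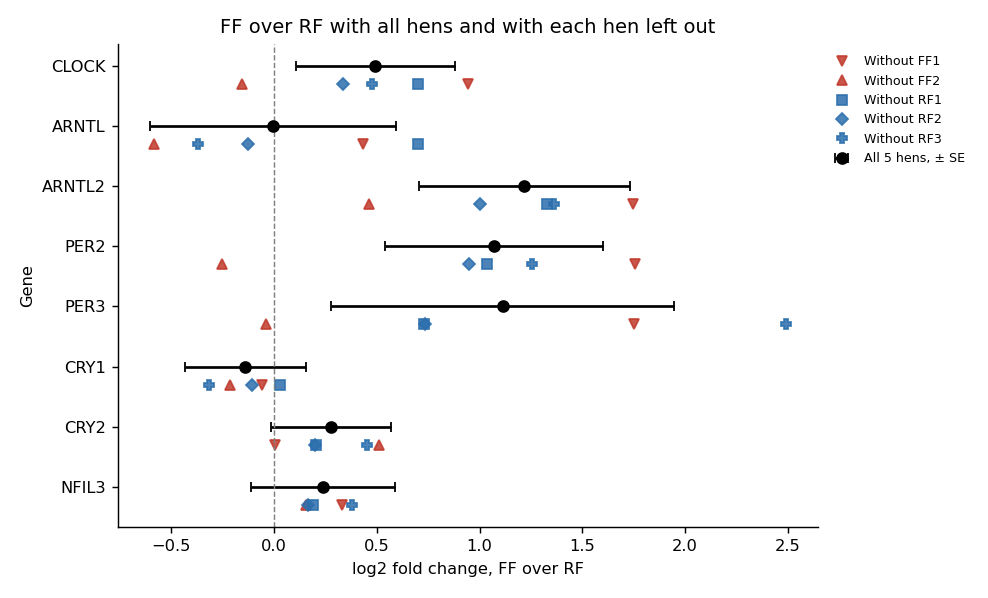
Log2 fold change of FF over RF for each clock gene with all 5 hens (black, ± SE) and with each hen left out in turn (coloured symbols). Leaving out FF2 brings CLOCK, PER2 and PER3 to -0.16, -0.25 and -0.041, and leaving out RF3 brings PER3 to 2.49.

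The range between hens of a group can be set beside that of the other genes. Over the RF hens the median range of the 8 members was 0.71 on the log2 scale, against 0.56 over all tested genes, and 6 of the 8 lay above 0.56. Over the FF hens the median was 1.07, against 0.52, and 5 of the 8 lay above it. In FF the wide members were PER2, PER3, ARNTL2, CLOCK and ARNTL, each higher in FF2, while CRY1 and NFIL3 had ranges of 0.18 and 0.19. FF2 is the library that stood apart, and its part in the FF ranges was not tested.

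**Figure D3:**
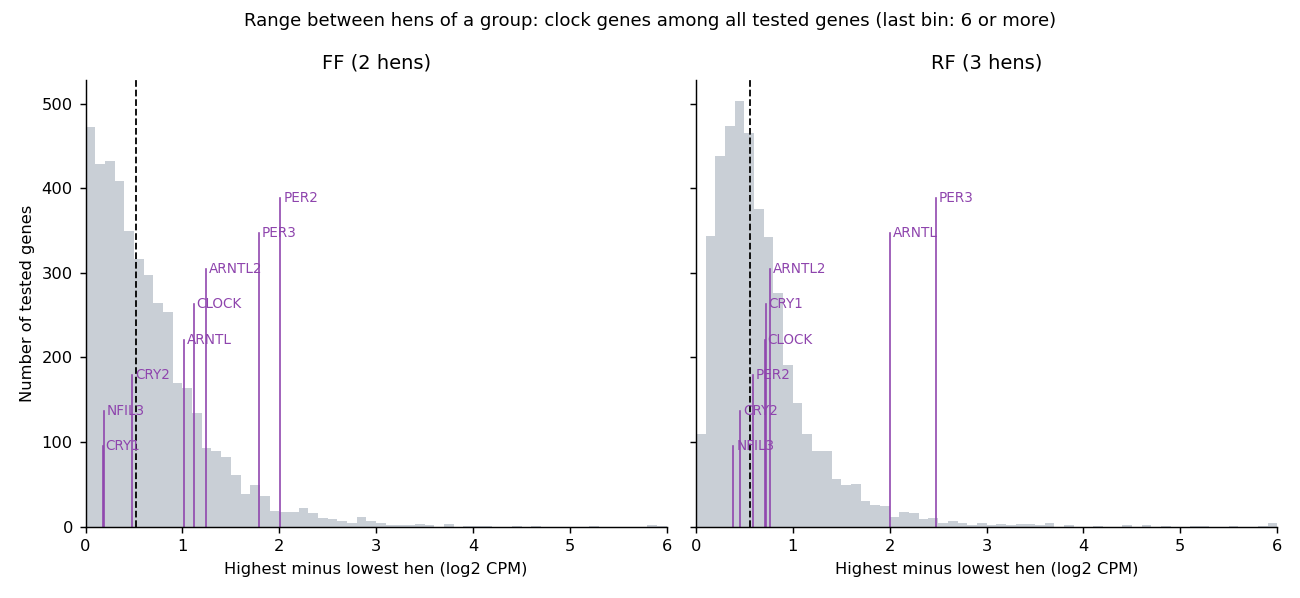
Number of tested genes (grey) by the difference between the highest and the lowest hen of FF (left) and RF (right), in log2 CPM, with the dashed line at the median of all genes and the clock genes marked in purple. PER2 and PER3 lie at 2.01 and 1.79 in FF, and ARNTL and PER3 at 2.01 and 2.48 in RF.

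Within the RF group, the mean levels of activators and of repressors were placed oppositely in RF1 and RF3, which rested mainly on ARNTL and PER3. Each gene was centred on its mean over the 5 hens and the members of an arm were averaged, which removes differences of length between genes. The activators (CLOCK, ARNTL and ARNTL2) averaged -0.23 (FF1) and 0.89 (FF2) in FF hens and 0.32 (RF1), -0.52 (RF2) and -0.46 (RF3) in RF hens. The repressors (PER2, PER3, CRY1 and CRY2) averaged -0.09 (FF1) and 0.78 (FF2) in FF hens and -0.41 (RF1), -0.51 (RF2) and 0.24 (RF3) in RF hens. In FF2 both arms were high and in RF2 both were low, whereas in RF1 the activators and in RF3 the repressors were the higher arm.

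The repressor level minus the activator level was therefore 0.14 (FF1) and -0.11 (FF2) in FF hens and -0.73 (RF1), 0.0066 (RF2) and 0.70 (RF3) in RF hens. Both FF hens lay inside the RF range, close to its middle hen. The means were 0.011 ± 0.18 for FF (SD, n = 2) and -0.0075 ± 0.71 for RF (SD, n = 3), so the difference between the feeding groups with these arms, 0.019, was smaller than the SD of either group. The difference ran from -0.34 without RF1 to 0.37 without RF3. With NPAS2 added to the activators and NR1D2 to the repressors it was 0.41, since the level was then 0.29 (FF1) and 0.20 (FF2) in FF hens and -1.20 (RF1), -0.42 (RF2) and 1.12 (RF3) in RF hens. Both FF hens still lay inside the RF range, and 0.41 was above the SD of the FF hens (0.066) and below that of the RF hens (1.18). These additions were a choice among the other clock genes taken up below. Neither BHLHE40 (0.33 in RF1 and 0.25 in RF3) nor RORA (0.42 and -0.38) was added to an arm. The arms were not uniform. Within the RF hens CRY1 (0.36 in RF1 and -0.36 in RF3) followed the order of ARNTL and not that of PER3. ARNTL2 was nearly equal in RF1 (-0.21) and RF3 (-0.17). The contrast of RF1 with RF3 was widest in ARNTL (0.97 and -1.04) and PER3 (-1.38 and 1.10). It was smaller in CLOCK (0.19 and -0.18), PER2 (-0.37 and 0.015) and CRY2 (-0.26 and 0.20). The opposite placing of the arm means thus rested mainly on ARNTL and PER3, and arm means without these genes were not taken.

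**Figure D4:**
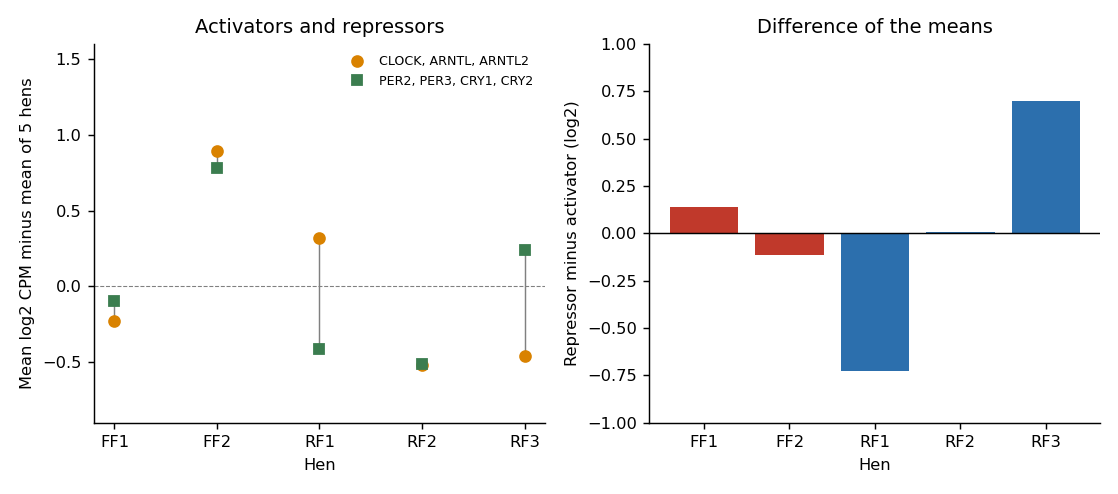
Left, the mean log2 CPM of the activators (circles) and repressors (squares) in each hen, relative to the mean of the 5 hens; right, the repressor mean minus the activator mean (FF red, RF blue). RF1 stands at -0.73 and RF3 at 0.70, with both FF hens and RF2 between -0.11 and 0.14.

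Other genes of the clock and of its partners were taken from a list of 50, of which 30 were in the table and 28 were tested; the other 20 were not analysed here. RORB was listed at 0 in every hen, and AANAT, which makes the precursor of melatonin, had at most 1 estimated count. By edgeR's quasi-likelihood test 0 of the 28 passed in either direction, and 2, both lower in FF, reached an unadjusted p under 0.05 (CREM and PPARGC1A), where 4.94% of all genes did so as lower and 9.35% in either direction. That count stayed at 2 without RF1 or RF2, against 235 of 4246 and 236 of 4271 tested genes. It was 6 of 27 without RF3, against 385 of 4241 tested genes. With the replicate number as a block it was 6 of 28, against 243 of 4309 tested genes. In both of these fits NPAS2, lower in FF, and ALAS1, NR1D2 and USP2, higher in FF, joined CREM and PPARGC1A. The block gives RF3 a term of its own, so those 2 fits compare FF and RF in the same hens and are not separate checks. For the list too, no count is given without FF1 or without FF2, where 1 FF hen is left. DESeq2 called 1 of the 28, CREM, also lower in FF. Positive log2 fold changes were found for 17 of the 28, with a median of 0.13, against 2182 of 4309 tested genes. FF and RF did not overlap in 5 of them, namely 3 in which FF lay above RF and 2 in which FF lay below, against 27% of all genes.

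NPAS2, which can take the place of CLOCK beside ARNTL, varied most within the RF group. It stood at 4.10 (FF1) and 5.82 (FF2) CPM in FF hens and at 32.2 (RF1), 13.8 (RF2) and 2.10 (RF3) CPM in RF hens. RF1 was 15.3-fold above RF3, the same order of the RF hens as for ARNTL and CRY1. Both FF hens lay between RF2 and RF3. The low values rested on few estimated counts, 9 in RF3, 20 in FF1 and 16 in FF2. The counting interval of RF3 (0.96 to 3.99 CPM) overlapped those of FF1 (2.51 to 6.34 CPM) and FF2 (3.33 to 9.45 CPM). Its range over the RF hens was at the 99.6 percentile of all tested genes. The log2 fold change was -1.71 ± 0.95 (edgeR quasi-likelihood, adjusted p = 0.602), -0.67 without RF1.

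The nuclear receptors of the second loop were NR1D2 and RORA, both chosen after their values were seen. NR1D2, a repressor of Arntl in mouse, stood at 53.3 (FF1) and 95.3 (FF2) CPM in FF hens and at 34.8 (RF1), 27.9 (RF2) and 102 (RF3) CPM in RF hens. RF3 and FF2 were its highest hens, as for PER3, and RF1 and RF2 its lowest. Its log2 fold change was 0.43 ± 0.57 (edgeR quasi-likelihood, adjusted p = 0.821), -0.034 without FF2 and 1.24 without RF3. RORA, an activator of Arntl in mouse, stood at 6.97 (FF1) and 17.5 (FF2) CPM in FF hens. In RF hens it stood at 14.6 (RF1), 9.99 (RF2) and 8.18 (RF3) CPM, the order of ARNTL in that group. RF2 and RF3 were close, on 34 and 35 estimated counts.

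TEF and USP2, like PER3, were highest in RF3 among the RF hens. The D-box activator TEF stood at 35.5 (FF1) and 56.7 (FF2) CPM in FF hens and at 29.4 (RF1), 15.9 (RF2) and 47.0 (RF3) CPM in RF hens. USP2, a deubiquitinase that is rhythmic in mouse liver, stood at 34.1 (FF1) and 42.2 (FF2) CPM in FF hens and at 14.8 (RF1), 7.93 (RF2) and 43.7 (RF3) CPM in RF hens. RF3 was the highest RF hen and RF2 the lowest for both, and the groups overlapped. Their log2 fold changes were 0.57 ± 0.45 and 0.77 ± 0.62 (edgeR quasi-likelihood, adjusted p = 0.696 and 0.704). TEF was 0.21 without FF2, 0.27 without RF2, 1.02 without RF3 and 0.87 without FF1, and USP2 was 1.73 without RF3 and 0.38 without RF2. ALAS1, the first enzyme of haem synthesis, and the fatty acid receptor PPARA had the same order of RF hens as TEF and USP2. ALAS1 stood at 293 (FF1) and 179.6 (FF2) CPM in FF hens and at 105 (RF1), 75.5 (RF2) and 294 (RF3) CPM in RF hens. PPARA stood at 42.5 (FF1) and 116 (FF2) CPM in FF hens and at 40.5 (RF1), 25.8 (RF2) and 77.1 (RF3) CPM in RF hens.

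**Figure D5:**
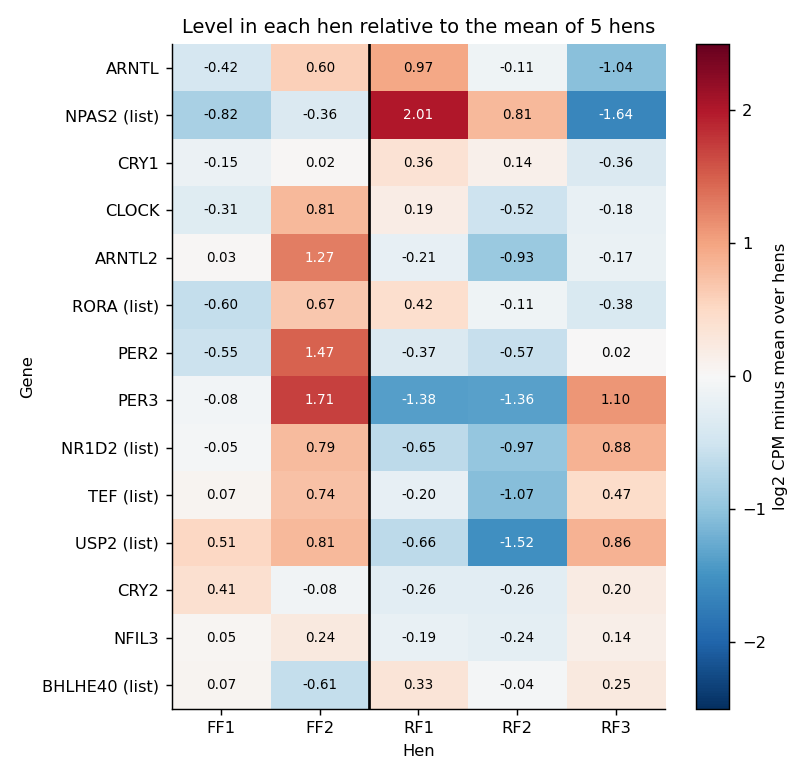
Log2 CPM of clock genes in each hen relative to the mean of the 5 hens (red higher, blue lower), FF hens left of the line and RF hens right; "list" marks genes that are not among the 8. The rows are the 8 members and some of the tested list genes, picked and ordered by hand. CREM, PPARGC1A and most kinases and phosphatases, among others, are not shown. In RF1 and RF3, ARNTL stands at 0.97 and -1.04 and NPAS2 at 2.01 and -1.64. PER3 stands at -1.38 and 1.10 and NR1D2 at -0.65 and 0.88.

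Both genes of the list with an unadjusted p under 0.05 lay lower in FF. CREM, a transcription factor that responds to cyclic AMP, stood at 19.5 (FF1) and 17.8 (FF2) CPM in FF hens and at 33.4 (RF1), 60.5 (RF2) and 114 (RF3) CPM in RF hens. Both FF hens were below all RF hens, and the log2 fold change was -1.89 ± 0.52 (edgeR quasi-likelihood, unadjusted p = 0.00731, adjusted p = 0.356; DESeq2, adjusted p = 0.0273). The DESeq2 call was 1 of 79, against 2 by the quasi-likelihood test. PPARGC1A, a coactivator of ROR receptors and of gluconeogenic genes, stood at 3.08 (FF1) and 4.73 (FF2) CPM in FF hens and at 30.8 (RF1), 17.9 (RF2) and 6.31 (RF3) CPM in RF hens. FF was again below RF throughout, but on few estimated counts, 15 in FF1 and 13 in FF2 against 27 in RF3, the nearest RF hen. The log2 fold change of PPARGC1A was -2.26 ± 0.70 (edgeR quasi-likelihood, adjusted p = 0.436), -1.64 without RF1. Within the RF hens PPARGC1A had the order of ARNTL and NPAS2, and CREM the opposite one. Few orders are possible with 3 RF hens, and the share of all tested genes with each order was not counted.

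The kinases, ligases and phosphatases that act on clock proteins gave no call. Of 12 tested, 9 had a positive log2 fold change, against 2182 of 4309 tested genes, and the median was 0.16. By edgeR's quasi-likelihood test 0 passed or had an unadjusted p under 0.05, and DESeq2 made no call. PRKAA1, a catalytic subunit of the energy sensor AMPK that marks CRY1 for breakdown in mouse, was the one with separate groups, at 27.5 (FF1) and 37.8 (FF2) CPM in FF hens and at 21.2 (RF1), 15.6 (RF2) and 23.8 (RF3) CPM in RF hens. Its log2 fold change was 0.68 ± 0.31 (edgeR quasi-likelihood, adjusted p = 0.553). The phosphatase subunit PPP1CC was at 0.55 ± 0.45 and turned to -0.41 without FF2. A further pair of genes in the list had FF above RF, the histone deacetylase HDAC3 (0.23 ± 0.25) and the transferrin receptor TFRC (0.47 ± 0.32). For HDAC3 the nearest hens, FF2 (53.8 CPM) and RF2 (53.2 CPM), were nearly equal. For TFRC they were FF2 (52.4 CPM) and RF2 (47.0 CPM). BHLHE40, which competes with CLOCK and ARNTL at E-boxes and which falls outside the rule for named genes, lay at -0.42 ± 0.31. It was -0.11 without FF2 and -0.80 without FF1.

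The genes whose pattern over the 5 hens was nearest to PER2 or ARNTL came from outside the clock list. Nearness was the root mean square difference of centred log2 CPM over the 5 hens. For PER2 the 3 nearest of 2054 candidates were LCT (lactase), at 0.079, ANAPC10, a subunit of the anaphase-promoting complex, at 0.081, and LOC768251, at 0.15. Each of the 3 was highest in FF2, at 1.61, 1.38 and 1.54 above its mean. For ARNTL the nearest of 2101 candidates were farther, with the homeobox gene LHX2 at 0.26, the cilium gene HYDIN at 0.27 and the potassium channel gene KCNN2 at 0.29. Among the members and the clock list, the nearest to ARNTL was RORA, at 0.39, and the nearest to PER2 was PPP1CC, at 0.24. For PER3 it was NR1D2, at 0.56, with USP2 at 0.59 and PPARA at 0.60. CLOCK was nearest to CREB1 (0.26), ARNTL2 to PRKAA1 (0.33) and CRY1 to PPP1CB (0.21). CRY2 was nearest to CSNK1D (0.18) and NFIL3 to PPP2CA (0.12). No minimum range was set within the list, so a member that varied little lay near any gene that varied little. The ranges of PPP1CB, CSNK1D and PPP2CA over the 5 hens were at the 18.9, 9.19 and 2.34 percentiles of all tested genes.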

How the data were processed

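RNA sequencing of liver from 2 FF and 3 RF hens was deposited as one table of estimated counts per gene symbol, 1 column per hen, with no normalization apparent in the column totals. FastQC, TopHat2 2.0.13, Cuffdiff 2.2.1, edgeR and the build galGal4 are named without roles, per the submitters' processing notes; libraries were strand-specific, per the labels' protocols. The annotation and the handling of multi-mapping reads and of strand were not stated there or in the labels. In 51 of 6286 entries (0.811%) a value was not exactly whole, with no tolerance allowed, and estimated counts were rounded before testing. Column headers match hen numbers in the labels, and nothing in the labels pairs equal replicate numbers.

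filterByExpr (minimum count 10) left 4309 genes and dropped 1977. Counts were TMM-scaled and tested with edgeR 4.0.16 in R 4.3.3 (glmQLFit, glmQLFTest, two-sided, FF over RF as the single term, SE from the F statistic, Benjamini-Hochberg threshold 0.05). Log2 CPM used a prior count of 2. Steps were tested on simulated data. DESeq2 was 1.42.0. Sensitivity settings were other scalings, filters, DESeq2, a replicate block and each hen left out; with 1 FF hen left, that hen is assumed to vary like the RF hens.

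The members and lists were chosen with earlier results of these data known. The text names all 8 members and, from the list of 50, genes past the threshold or with separate groups plus the 6 with the largest change among the rest. The 3 genes nearest to PER2 and to ARNTL came from genes averaging 1 or more in log2 CPM, with a range over hens at least 0.5 times that of the member. All 8 members matched a symbol in the RefSeq table of assembly GRCg7b, which was used for names only since its build differs.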

Additional observations from a re-analysis of the deposited data

How the results depend on the processing

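Across 11 alternatives no member passed the threshold, and ARNTL2, CRY2 and NFIL3 kept a log2 fold change above 0 in each. ARNTL, at -0.0050, turned to 0.10 with library totals alone, 0.0056 with the filter of 5 CPM in 2 hens and 0.0061 with DESeq2, and ran from -0.59 to 0.70 as each hen was left out. On leaving out each hen CLOCK ran from -0.16 to 0.95, PER2 from -0.25 to 1.76, PER3 from -0.041 to 2.49 and CRY1 from -0.31 to 0.032. In the clock list RORA ran from -0.63 to 0.67, NR1D2 from -0.034 to 1.24, PPP1CC from -0.41 to 1.14 and PPARA from -0.17 to 1.27, each lowest without FF2. Genes past the threshold, 2 with all hens, numbered 6 without a filter, 1 with 5 CPM, 79 by DESeq2 and 0 to 8 with each hen left out. In the clock list 1 gene passed by DESeq2, and CREM had adjusted p = 0.0273 there. The repressor minus activator difference, 0.019, was 0.41 with NPAS2 and NR1D2 added to the arms. Library totals alone moved the median of all genes to 0.11. The log2 ranges over the RF hens of the 8 members, NPAS2, NR1D2, TEF and USP2 moved by less than their SD with either other scaling, a check chosen after seeing the data. The cause of the changes above was not tested.

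Equal replicate numbers mark different hens. Deviations from the group means correlated at -0.14 for FF1 and RF1 and at -0.36 for FF2 and RF2 over 4309 genes. With 2 FF hens their deviations mirror each other, so FF2 and RF1 stood at 0.14 and FF1 and RF2 at 0.36. Each sign is thus fixed by its mirror, and these values cannot show whether hens were paired. With the replicate number as a block, 6 genes and 0 members passed, 1 member (PER3, 2.23) had an unadjusted p under 0.05, and RORA turned to -0.14. Members with few counts, NFIL3 and ARNTL2 above all, are limited by depth.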
